A study of Mus musculus with 8 samples.

Results

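Type I interferon-stimulated genes are the genes that a cell switches on when interferon-α or interferon-β binds its receptor. A set of 41 such genes, given as a list of gene names and found by name among the 26939 genes of the joined tables, was followed in tumor-associated macrophages (TAMs). The set comprised the transcription factors of the pathway, sensors of foreign RNA and DNA, and antiviral effectors and members of the ISG15 system, and the rule that made it is the list of names alone. The question was whether the loss of endosomal Toll-like receptor (TLR) signaling lowers this signature, and whether an antibody to the scavenger receptor MARCO (αMARCO) changes it.

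The mice were C57BL/6J females, called wild type (WT), or *Unc93b1* 3d/3d females, 8 to 14 weeks old, all carrying orthotopic EO771 breast tumors in the mammary fat pad. UNC93B1 carries TLR3, TLR7 and TLR9 to endosomes, and the 3d allele, a point mutation present in every cell of the animal, leaves these receptors without function. Macrophages were sorted at day 21 by a gate of CD45+, CD11b+, F4/80+ and Gr-1- among live cells, and their poly-A RNA was sequenced in 2 libraries for each of 4 groups. These were WT control, 3d/3d control, WT αMARCO and 3d/3d αMARCO, where treated mice had received repeated doses of 100 µg of the rat IgG1 clone ED31. The sample labels call the control mice untreated and their libraries PBS, whereas the protocol names an isotype antibody, so the injection given to controls is not settled. Each control library came from 3 pooled mice according to the figure legend of the study, and for the αMARCO libraries the number of mice was not given in the sources used here. The genotype entry of 3d/3d control library 2 reads 3d/4d, while its title reads 3d/3d. With 2 libraries per group, every standard error (SE) below comes from a fit that estimates the spread from these few libraries, with information shared across genes.

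Interferon-α and interferon-β act through the receptor chains IFNAR1 and IFNAR2 and the kinases JAK1 and TYK2, which activate STAT2 within the complex ISGF3. This complex, which also holds IRF9, binds interferon-stimulated response elements in the promoters of its targets, whereas interferon-γ acts mainly at other sites (GAS). In macrophages, nucleic acids sensed by TLR7 and TLR9 in endosomes, or by RIG-I, MDA5 and STING in the cytosol, induce interferon through IRF7, IRF5 and IRF3, and the released interferon then raises the same sensors and factors.

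The signature was expressed in the TAMs of both genotypes and both treatments. The summed CPM of the 41 genes (a count scaled to the size of its library with edgeR's TMM factors) was 11206 and 11437 in WT control, 12105 and 12198 in WT αMARCO, 13201 and 10742 in 3d/3d control, and 12840 and 13043 in 3d/3d αMARCO. The lowest of these 8 sums was 3d/3d control library 2 and the highest was 3d/3d control library 1, so that this group alone spanned the sums of the other 3. Calls were made in edgeR's quasi-likelihood test where the Benjamini-Hochberg adjusted p did not exceed 0.05 and the log2 fold change was 0.5 or more in either direction. Between the genotypes in control TAMs, 1 of the 41 genes was called higher in WT (*Irf1*) and 1 lower (*Rsad2*), beside 6.58% and 6.4% of all genes tested. With αMARCO, WT TAMs had 5 of the 41 genes called higher (*Stat2*, *Oas2*, *Oasl2*, *Slfn5* and *Parp14*) and 3 lower (*Ifit3b*, *Bst2* and *Ifi27l2a*), beside 8.91% and 11.8% of all genes. No member was called in the other 2 pairwise comparisons.

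The libraries held between 15182618 and 26411936 counts in genes, and the 41 genes took 1.11% to 1.38% of them. Each member had at least 719 counts in every library, far above the 3 counts taken as the limit of detection, and all 41 were tested in all 5 comparisons. Library 2 of 3d/3d αMARCO stood apart. Over the 41 genes, the root mean square of the log2 difference in CPM between the libraries of a group was 0.155 in WT control and 0.139 in WT αMARCO, 0.349 in 3d/3d control and 0.501 in 3d/3d αMARCO. As a check of the sort, the macrophage genes *Adgre1* (331 to 719.6 CPM), *Csf1r* (904 to 1131 CPM) and *Cd68* (763 to 1052 CPM) were high in every library. Summed over 11 macrophage markers, WT control stood at 15130 and 16050 CPM and 3d/3d control at 13360 and 16090 CPM. WT αMARCO stood at 12370 and 13110 CPM and 3d/3d αMARCO at 12730 and 18640 CPM. Of these 11, 1 was called higher and 2 lower in WT control than in 3d/3d control, beside 6.58% and 6.4% of all genes. After αMARCO in WT TAMs, 1 was called higher and 4 lower, beside 8.91% and 11.8%. *Unc93b1* mRNA was at 848 and 965 CPM in WT control and at 539 and 659.7 CPM in 3d/3d control, with a log2 fold change of WT over 3d/3d of 0.58 ± 0.12 (SE, adjusted p = 0.0125 by edgeR). Because 3d is a point mutation, this mRNA level does not check the genotype labels.

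Because these genes are grouped by how they are induced, promoter stretches are shown for members that were called in a comparison and held a match to a motif. Promoter sequences were taken from the RefSeq table of GRCm38.p6, which holds the 250 bases before and 50 bases after each start site. It matched 30 of the 41 genes, and *Dhx58*, *Ifi204*, *Ifi27l2a*, *Mx1*, *Mx2*, *Oas2*, *Parp14*, *Parp9*, *Rtp4*, *Usp18* and *Zbp1* had no entry. The letters GAAANNGAA, a short core of the interferon response element, were found on either strand in 19 of the 30 matched genes (63.3%), against 9.76% of all 27025 genes in the table and 8.56% of its 32851 promoters, all of the same length. The letters TTCNNNGAA, the core of GAS, were found in 8 of the 30 (26.7%), against 9.55% of all genes and 8.3% of all promoters. In the following stretches, all upstream of the start site that RefSeq gives and written 5′ to 3′ on the strand of the gene, capitals mark matches to GAAANNGAA or its reverse complement, except in *Irf1*, where they mark the TTCNNNGAA match. The *Irf1* stretch is chr11:53769894-53769973 on the plus strand, *Rsad2* chr12:26456523-26456602 on the minus strand, *Stat2* chr10:128270248-128270327 on the plus strand, *Slfn5* chr11:82951927-82952006 on the plus strand, *Bst2* chr8:71537553-71537632 on the minus strand and *Ifit3* chr19:34583354-34583448 on the plus strand. The *Slfn5* stretch lies inside the gene as positioned in the deposited tables, whose first base comes before the RefSeq start used here.
Irf1: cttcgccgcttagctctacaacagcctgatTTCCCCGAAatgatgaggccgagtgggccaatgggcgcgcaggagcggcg
Rsad2: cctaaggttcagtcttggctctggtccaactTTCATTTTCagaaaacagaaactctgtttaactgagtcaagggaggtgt
Stat2: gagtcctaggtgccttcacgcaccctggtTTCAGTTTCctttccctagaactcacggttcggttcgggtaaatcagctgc
Slfn5: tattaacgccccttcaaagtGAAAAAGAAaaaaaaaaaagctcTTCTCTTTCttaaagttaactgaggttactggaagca
Bst2: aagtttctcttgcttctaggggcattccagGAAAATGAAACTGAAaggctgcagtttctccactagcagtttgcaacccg
Ifit3: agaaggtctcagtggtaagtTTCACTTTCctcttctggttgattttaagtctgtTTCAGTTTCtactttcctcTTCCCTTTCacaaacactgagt

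*Irf1* had 2 promoters in RefSeq, of which 1, the one shown, held the GAS core, and neither held a GAAANNGAA match in its window. The promoters of *Rsad2* and *Stat2* held the response element core alone. In *Bst2* the 2 matches overlapped each other, and its TTCNNNGAA match overlapped the first of them. *Ifit3b* carries the same letters as the *Ifit3* stretch at chr19:34607750-34607844, and the promoters of this pair were identical at 75.0% of 268 aligned bases. *Ifit3* was called in no comparison and is shown for its likeness to *Ifit3b*. *Oasl2*, which was called, had an entry with neither motif in its window and is not shown. A match of letters is a description of the sequence and does not show binding.

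**Figure D1:**
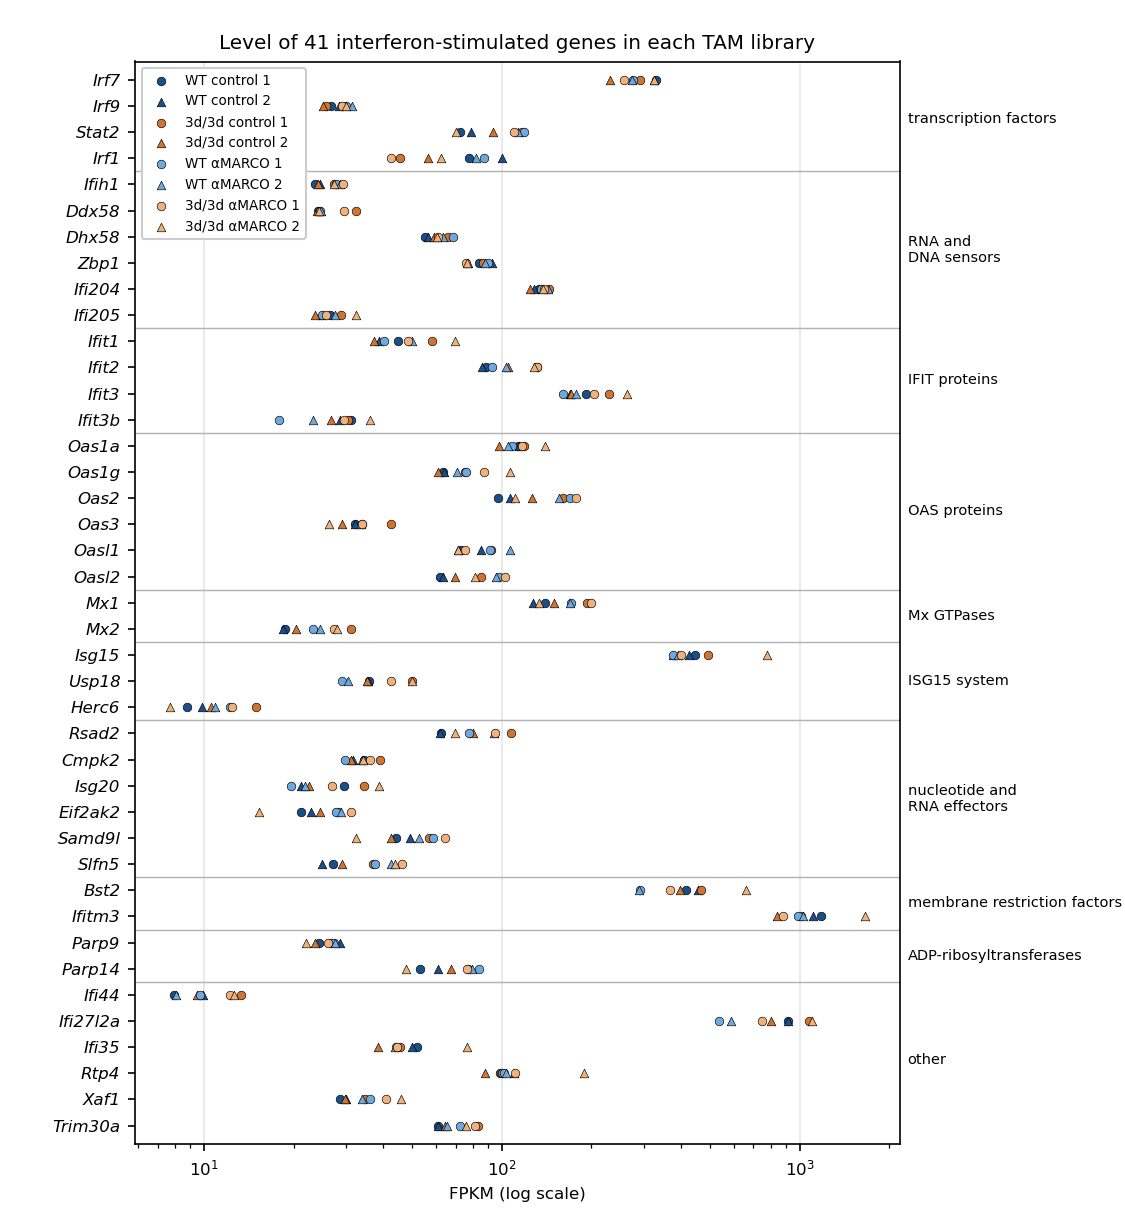
FPKM (log scale) of each of the 41 genes in each of the 8 libraries, with genes grouped by role, colored by group with a marker for each library. *Ifitm3*, *Ifi27l2a*, *Isg15* and *Bst2* were highest and *Ifi44* and *Herc6* lowest, and the libraries of all groups lay close together for most genes.

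Levels were compared between genes as FPKM, the deposited value per length, averaged over the 8 libraries. *Ifitm3*, which blocks viral fusion in endosomes, was highest at 1087 FPKM, followed by *Ifi27l2a* at 835 FPKM, the ubiquitin-like modifier *Isg15* at 460.4 FPKM, the virus tether *Bst2* at 418 FPKM and *Irf7* at 288 FPKM. The lowest were *Herc6* at 10.9 FPKM and *Ifi44* at 10.4 FPKM. Across the 8 libraries, the members varied about as much as other genes with at least as many counts. The highest of the 8 CPM values was between 1.149 times (*Ifi204*) and 2.37 times (*Irf1*) the lowest, with a median over the 41 genes of 1.66, beside 1.61 over 3856 genes with at least as many counts in every library.

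The transcription factors held *Irf1*, which had the largest fold change of the 41 genes between the genotypes in control TAMs, and *Stat2*, which rose after αMARCO in WT TAMs. *Irf1* (chromosome 11, 53770014 to 53778374, plus strand, in GRCm38) encodes an activator induced by interferon-γ and type I interferon. It was at 313 and 406 CPM in WT control, 180.3 and 226 CPM in 3d/3d control, 346 and 327 CPM in WT αMARCO, and 172 and 248 CPM in 3d/3d αMARCO. All 4 WT libraries lay above all 4 3d/3d libraries. In control TAMs its log2 fold change of WT over 3d/3d was 0.81 ± 0.15 (SE, adjusted p = 0.0113 by edgeR), and under αMARCO it was 0.68 ± 0.25 (adjusted p = 0.709). The call in control was lost when all 8 libraries were fitted together (adjusted p = 0.127). Without library 2 of 3d/3d αMARCO the value under αMARCO was 0.97, and without library 1 it was 0.44. Each of these fits had a lone 3d/3d library, whose own spread it could not measure. The αMARCO effect on *Irf1* was −0.09 ± 0.12 in WT TAMs and 0.06 ± 0.28 in 3d/3d TAMs. An antisense-strand gene, *Gm17334*, overlaps 907 bases of *Irf1* and had a median of 102 counts against 5203 for *Irf1*.

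*Stat2* (chromosome 10, 128270559 to 128292849, plus strand), which encodes a part of ISGF3, was at 435 and 474 CPM in WT control, 693 and 556 CPM in 3d/3d control, 706 and 674 CPM in WT αMARCO, and 663 and 417 CPM in 3d/3d αMARCO. WT control was the low group, and 3d/3d αMARCO library 2 was the lowest single library. It rose in WT TAMs after αMARCO by a log2 fold change of 0.61 ± 0.09 (SE, adjusted p = 0.000976 by edgeR). In control TAMs WT over 3d/3d was −0.48 ± 0.12 (adjusted p = 0.0285), short of the fold threshold. *Irf7*, the factor that links endosomal TLRs to interferon genes, was at 1259 and 1240 CPM in WT control, 1096 and 880.3 CPM in 3d/3d control, 1041 and 1036 CPM in WT αMARCO, and 991 and 1226 CPM in 3d/3d αMARCO. Both WT control libraries exceeded both 3d/3d control libraries, by a log2 fold change of 0.32 ± 0.12 that was not called (adjusted p = 0.102 by edgeR). In WT TAMs the αMARCO effect on *Irf7* was −0.26 ± 0.09 (adjusted p = 0.0482), also below the fold threshold. *Irf9*, the DNA-binding part of ISGF3, ranged from 136 to 170.0 CPM over the 8 libraries and was called in no comparison.

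**Figure D2:**
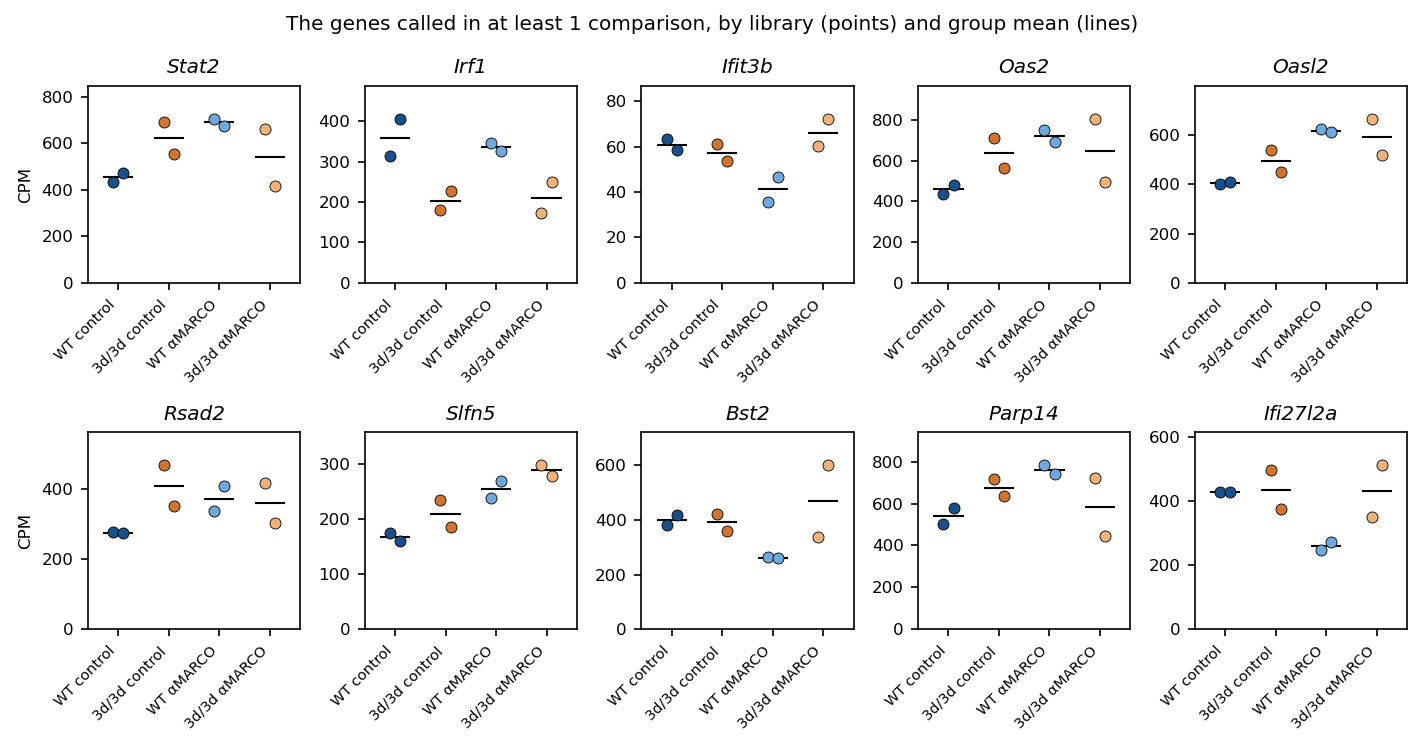
CPM of the 10 genes called in at least 1 comparison, with a point for each library and a line at the mean of each group of 2, on axes that start at 0. *Irf1* separated the genotypes in every library, *Bst2* and *Ifi27l2a* were lowest in WT αMARCO, and the 2 libraries of 3d/3d αMARCO were far apart for most of the other genes.

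Sensors of RNA and DNA varied little, and none of the 6 was called in any comparison by edgeR, where *Ifih1* and *Dhx58* had an unadjusted p under 0.05 after αMARCO in WT TAMs. DESeq2 called none of them either. *Ifi204*, a DNA-binding protein of the p200 family, was at 482 and 463 CPM in WT control, 511 and 445 CPM in 3d/3d control, 484 and 509 CPM in WT αMARCO, and 501 and 490.5 CPM in 3d/3d αMARCO. *Zbp1*, which senses Z-form nucleic acid, was at 301 and 333 CPM, 304 and 273 CPM, 316 and 310.2 CPM, and 271 and 271 CPM in the same groups. *Dhx58*, the RIG-I-like receptor LGP2, was at 183 and 188 CPM, 215 and 195 CPM, 224 and 207 CPM, and 203 and 199 CPM. The groups of *Ifi204* overlapped in 3 of the 4 pairwise comparisons, and *Dhx58* was higher in both WT αMARCO libraries than in both WT controls, by a log2 fold change of 0.22 ± 0.08 (SE, adjusted p = 0.0519 by edgeR). *Ifih1* (MDA5) ranged from 196 to 244 CPM, *Ddx58* (RIG-I) from 169.6 to 227 CPM and *Ifi205* from 99.03 to 136 CPM. Over all comparisons except the difference of the αMARCO effects, log2 fold changes of the 6 sensors ran from −0.20 to 0.22. *Ifi204* shared 10.7% of its windows of 100 bases with other p200 genes, and *Ifi205* shared a larger part of its own, so that some of their reads cannot be assigned to a single gene with certainty.

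The 4 IFIT genes encode proteins that bind foreign RNA ends, and all lie on chromosome 19. *Ifit3* was at 340.3 and 300.2 CPM in WT control, 399 and 301 CPM in 3d/3d control, 281 and 310.0 CPM in WT αMARCO, and 361 and 461 CPM in 3d/3d αMARCO. *Ifit2* was at 352 and 341 CPM in WT control, 513 and 413 CPM in 3d/3d control, 366 and 407 CPM in WT αMARCO, and 526 and 503 CPM in 3d/3d αMARCO. Both 3d/3d groups of *Ifit2* lay above the WT groups, with a log2 fold change of WT over 3d/3d of −0.43 ± 0.12 in control TAMs (SE, adjusted p = 0.0336 by edgeR) and −0.41 ± 0.20 under αMARCO (adjusted p = 0.709), neither of them called. *Ifit3b* (34607970 to 34613401, plus strand), a paralog of *Ifit3*, was at 63.1 and 58.3 CPM in WT control, 61.03 and 53.7 CPM in 3d/3d control, 35.6 and 46.6 CPM in WT αMARCO, and 60.1 and 72.2 CPM in 3d/3d αMARCO. It was lowest in the WT αMARCO libraries and fell there by 0.55 ± 0.13 on the log2 scale (adjusted p = 0.00931 by edgeR). This call was lost without WT αMARCO library 1 (−0.36, adjusted p = 0.0730) or WT control library 1 (−0.50, adjusted p = 0.0268), and with a correction for gene length (−0.41, adjusted p = 0.0309). *Ifit3* and *Ifit3b* shared 31.7% and 27.4% of their windows of 100 bases, so their split is uncertain. *Ifit1* ranged from 99.9 to 185 CPM.

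OAS enzymes make the second messenger that activates RNase L on double-stranded RNA, and the 2 OASL genes are their relatives. *Oas2* (chromosome 5, 120730333 to 120749853, minus strand) was at 439 and 480.0 CPM in WT control, 714 and 566 CPM in 3d/3d control, 753 and 693 CPM in WT αMARCO, and 806 and 494 CPM in 3d/3d αMARCO. *Oasl2* (chromosome 5, 114896936 to 114912234, plus strand) was at 402 and 409 CPM, 540.5 and 448 CPM, 624 and 611 CPM, and 665 and 519.7 CPM in these groups. For both genes the WT control libraries were the 2 lowest of the 8. αMARCO raised *Oas2* by a log2 fold change of 0.66 ± 0.09 (SE, adjusted p = 0.000825 by edgeR) and *Oasl2* by 0.61 ± 0.08 (adjusted p = 0.000695) in WT TAMs, and the same effects in 3d/3d TAMs were 0.03 ± 0.32 and 0.27 ± 0.27, neither called. In control TAMs *Oas2* had a log2 fold change of WT over 3d/3d of −0.49 ± 0.13 (adjusted p = 0.0270 by edgeR), just short of the fold threshold. *Oas1a* was at 217 and 219 CPM in WT control, 223 and 186 CPM in 3d/3d control, 204 and 199 CPM in WT αMARCO, and 224 and 264 CPM in 3d/3d αMARCO, with no call. *Oas1g* (144 to 251 CPM), *Oas3* (186 to 300.2 CPM) and *Oasl1* (187 to 278 CPM) were called in no comparison either. *Oas1a* and *Oas1g* shared 40.9% and 31.2% of their windows and are uncertain as a pair.

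Mx proteins are dynamin-like GTPases that trap viral particles. *Mx1* was at 516 and 469.6 CPM in WT control, 706 and 551 CPM in 3d/3d control, 622 and 617 CPM in WT αMARCO, and 738 and 488 CPM in 3d/3d αMARCO. *Mx2* was at 68.8 and 67.8 CPM, 113 and 74.1 CPM, 84.2 and 88.8 CPM, and 101 and 102 CPM in the same order. Both genes were lowest in WT control, apart from *Mx1* in 3d/3d αMARCO library 2, which lay between the WT controls. The αMARCO effect in WT TAMs was 0.34 ± 0.09 for *Mx1* (SE, adjusted p = 0.0150 by edgeR) and 0.35 ± 0.08 for *Mx2* (adjusted p = 0.00737), in both cases under the fold threshold.

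In the ISG15 system, *Isg15* encodes the modifier, *Herc6* a ligase that attaches it and *Usp18* the protease that removes it and also dampens the interferon receptor. *Isg15* was at 340.4 and 326 CPM in WT control, 371 and 286 CPM in 3d/3d control, 284 and 297 CPM in WT αMARCO, and 307 and 589.7 CPM in 3d/3d αMARCO. The last library alone was far above the other 7. *Usp18* was at 101 and 101 CPM, 139 and 99.13 CPM, 81.5 and 85.4 CPM, and 120.1 and 139.6 CPM, lowest in WT αMARCO. Its log2 fold change after αMARCO in WT TAMs was −0.27 ± 0.08 (SE, adjusted p = 0.0211 by edgeR), under the fold threshold. Under αMARCO, *Usp18* had the lowest adjusted p of all members between the genotypes (−0.63 ± 0.18, adjusted p = 0.591 by edgeR). Its log2 fold change was −0.52 without library 2 of 3d/3d αMARCO and −0.74 without library 1. Either fit held a lone 3d/3d library and could not measure the spread of that group. *Herc6* was at 82.4 and 93.0 CPM, 138 and 98.98 CPM, 114 and 102 CPM, and 118 and 71.5 CPM, and was not called.

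Among effectors that act on nucleotides and RNA, *Rsad2* (chromosome 12, 26442746 to 26456452, minus strand) encodes viperin, which makes a chain-terminating nucleotide. It was at 276 and 274 CPM in WT control, 466 and 349.9 CPM in 3d/3d control, 337 and 407 CPM in WT αMARCO, and 418 and 304 CPM in 3d/3d αMARCO. WT control held the 2 lowest libraries. WT over 3d/3d in control TAMs was −0.59 ± 0.14 on the log2 scale (SE, adjusted p = 0.0203 by edgeR), which made *Rsad2* the only member called lower in WT. Without library 1 of 3d/3d control it was −0.36 (adjusted p = 0.0619) and the call was lost, as it was with all 8 libraries in 1 model (adjusted p = 0.256). *Rsad2* had in WT TAMs after αMARCO a log2 fold change of 0.44 ± 0.10 (adjusted p = 0.00746), below the fold threshold. *Slfn5* (chromosome 11, 82951349 to 82964840, plus strand), of the Schlafen family, was at 174 and 160.0 CPM in WT control, 234 and 185 CPM in 3d/3d control, 238 and 269 CPM in WT αMARCO, and 297 and 278 CPM in 3d/3d αMARCO. It was higher in all 4 αMARCO libraries than in all 4 controls, with an αMARCO effect of 0.61 ± 0.09 in WT TAMs (adjusted p = 0.000999 by edgeR) and 0.46 ± 0.24 in 3d/3d TAMs (adjusted p = 0.823). Without library 2 of 3d/3d αMARCO, the latter was 0.51, in a fit with a lone treated library.

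*Eif2ak2*, the kinase PKR that halts translation on double-stranded RNA, was at 110.0 and 119 CPM in WT control, 144 and 126 CPM in 3d/3d control, 142 and 148 CPM in WT αMARCO, and 162 and 78.7 CPM in 3d/3d αMARCO. *Samd9l*, an antiviral and growth-restraining factor, was at 243 and 272 CPM, 308 and 231 CPM, 319 and 287 CPM, and 354 and 177 CPM. In both genes the libraries of 3d/3d αMARCO were the highest and the lowest of all 8. *Eif2ak2* had an αMARCO effect in WT TAMs of 0.35 ± 0.08 (SE, adjusted p = 0.00724 by edgeR), under the fold threshold. *Cmpk2*, a nucleotide kinase next to *Rsad2* in the genome, ranged from 124 to 162 CPM, and the exonuclease gene *Isg20* from 36.4 to 72.0 CPM, with no call.

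Of the 2 membrane restriction factors, *Bst2* fell after αMARCO in WT TAMs and *Ifitm3* was not called. *Bst2* (tetherin, chromosome 8, 71534255 to 71537456, minus strand), which holds budding virus at the cell surface, was at 382 and 418 CPM in WT control, 421 and 360.5 CPM in 3d/3d control, 264 and 261 CPM in WT αMARCO, and 337 and 599 CPM in 3d/3d αMARCO. Its WT αMARCO libraries were the 2 lowest of the 8. It fell in WT TAMs by 0.60 ± 0.08 on the log2 scale (SE, adjusted p = 0.000813 by edgeR), a call lost with a correction for gene length (−0.40, adjusted p = 0.00813). *Ifitm3* was at 809.7 and 765 CPM in WT control, 684 and 575 CPM in 3d/3d control, 668 and 694 CPM in WT αMARCO, and 608 and 1128 CPM in 3d/3d αMARCO. It was higher in both WT controls than in both 3d/3d controls, by a log2 fold change of 0.31 ± 0.11 that was not called (adjusted p = 0.0934 by edgeR).

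*Parp14* (chromosome 16, 35832874 to 35871544, minus strand) and *Parp9* are neighboring ADP-ribosyltransferase genes. *Parp14* was at 501 and 579 CPM in WT control, 717 and 634 CPM in 3d/3d control, 782 and 741 CPM in WT αMARCO, and 721 and 443 CPM in 3d/3d αMARCO. It rose after αMARCO in WT TAMs by 0.50 ± 0.10 on the log2 scale (SE, adjusted p = 0.00395 by edgeR), at the threshold. The call was lost without WT αMARCO library 1 (0.47) or WT control library 1 (0.40), with the gene length correction (0.38), with library totals in place of TMM (0.50) and with no filter on low counts (0.50). *Parp9* was at 119.9 and 141 CPM, 129.5 and 116 CPM, 133 and 135 CPM, and 129 and 107 CPM, with no call, and overlaps 682 bases of *Dtx3l* on the opposite strand, with a median of 2413 counts for *Parp9* and 2548 for *Dtx3l*. Whether the counting used strand was not given in the sources used here.

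Of the 6 remaining members, *Ifi27l2a* (chromosome 12, 103442167 to 103443680, minus strand), which encodes a small mitochondrial and membrane protein, was at 429 and 429.6 CPM in WT control, 498 and 374 CPM in 3d/3d control, 249 and 272 CPM in WT αMARCO, and 351 and 511 CPM in 3d/3d αMARCO. Its WT αMARCO libraries lay below the other 6, and the fall in WT TAMs of 0.71 ± 0.08 on the log2 scale (SE, adjusted p = 0.000383 by edgeR) was the largest of the 41 genes in that comparison. *Rtp4*, a chaperone of receptors that also restrains the interferon response, was at 213 and 237 CPM, 213 and 189 CPM, 217 and 221 CPM, and 240.2 and 404 CPM, so that only 3d/3d αMARCO library 2 stood apart. *Xaf1*, which promotes apoptosis, was at 136 and 143 CPM, 162 and 141 CPM, 169 and 159 CPM, and 194 and 216 CPM. Its αMARCO effect was 0.24 ± 0.08 in WT TAMs (adjusted p = 0.0357 by edgeR) and 0.44 ± 0.22 in 3d/3d TAMs (adjusted p = 0.823). *Ifi44* (49.3 to 81.2 CPM), *Ifi35* (66.9 to 132 CPM) and *Trim30a* (254 to 341 CPM) were called in no comparison.

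**Figure D3:**
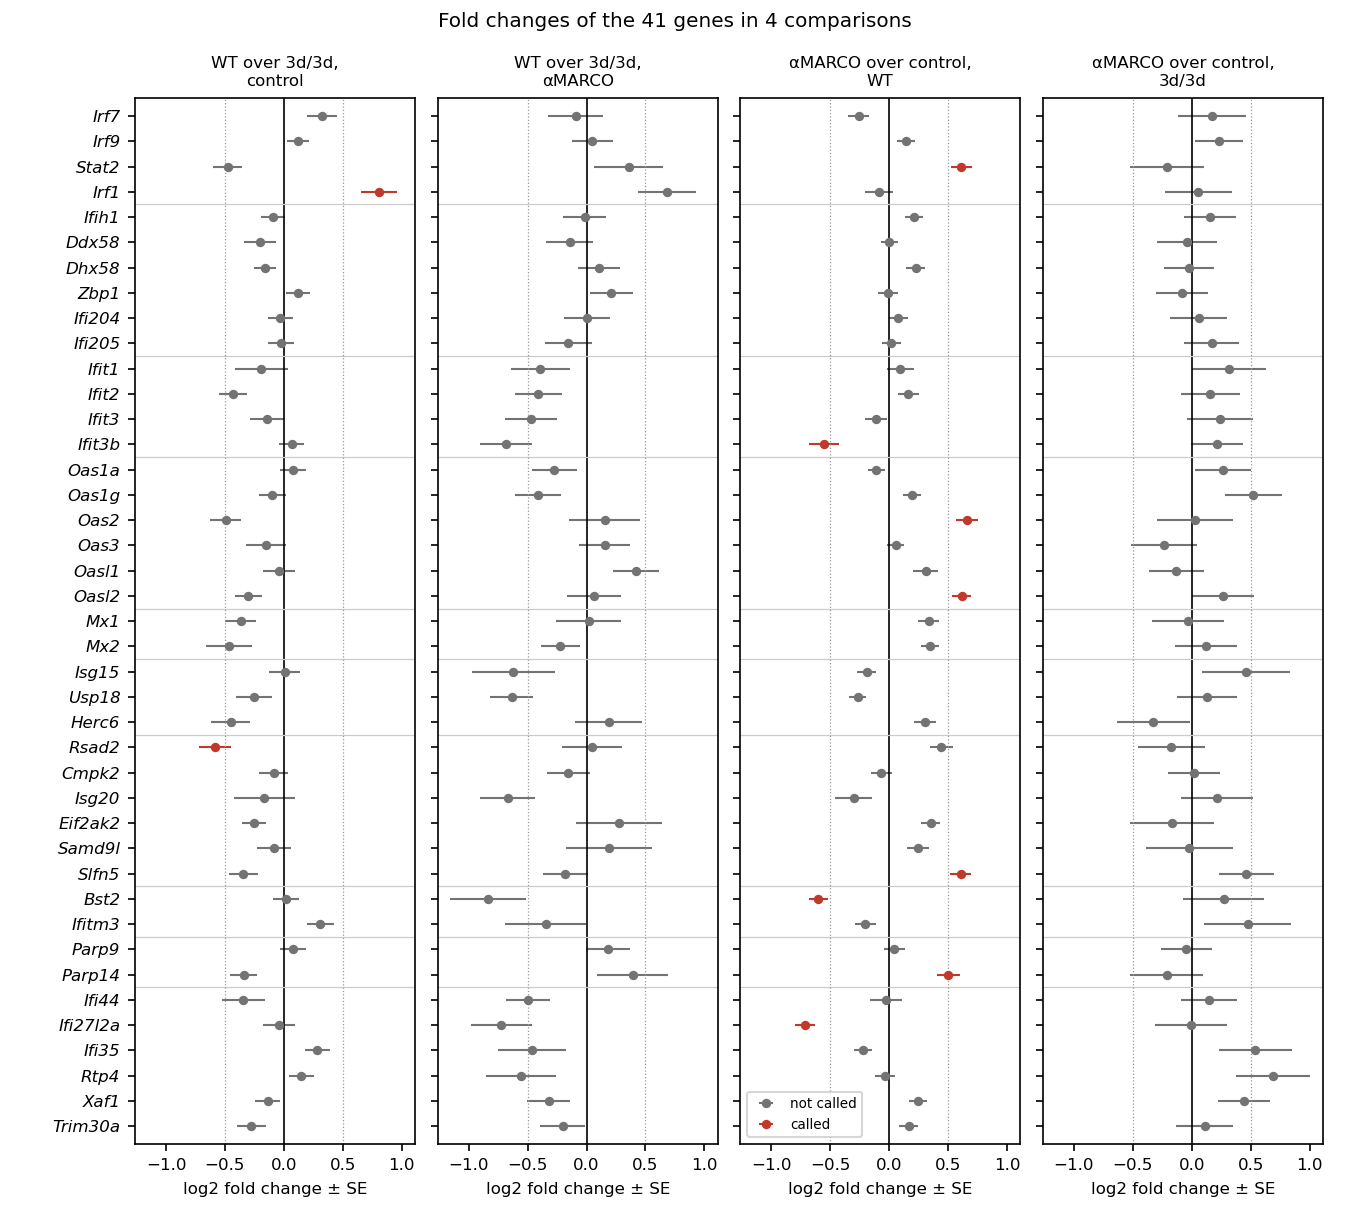
Log2 fold changes with standard errors of the 41 genes in the 4 pairwise comparisons, with called genes in red, a solid line at 0 and dotted lines at the fold threshold. Standard errors were smallest for αMARCO in WT TAMs, where the 8 calls lay, and were wider in both comparisons that include 3d/3d αMARCO.

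The genotype comparison in control TAMs asked whether the signature depends on endosomal TLRs. The median log2 fold change of WT over 3d/3d was −0.14 over the 41 genes, beside 0.00 over all 15600 genes tested, with 29 of the 41 genes below 0. Both WT libraries were higher than both 3d/3d libraries for 5 genes (12.2%, beside 33.2% of all genes) and lower for 13 genes (31.7%, beside 29.9%), and the groups of the other 23 overlapped. At an unadjusted p under 0.05 stood 14 genes (34.1%), beside 33.6% of all genes, so the share of members that moved was near that of all genes. The direction of the median rested on a single library. In 3d/3d control, 40 of the 41 genes were higher in library 1 than in library 2, by a median of 0.32 on the log2 scale, beside 48.0% of all genes tested. Without 3d/3d control library 1 the median over the 41 genes was 0.08, with 25 of them above 0 and *Irf1* still called. Without 3d/3d control library 2 the median was −0.25, and 9 genes were called lower in WT (22.0%, beside 5.23% of all genes in that fit), among them *Stat2*, *Ifit2*, *Oas2*, *Mx1* and *Mx2*.

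In bulk RNA, fewer cells of a type and less RNA per cell cannot be told apart. Markers of other cell types moved with genotype and treatment in the same libraries. Summed over 17 T cell markers, WT control stood at 269 and 279 CPM, 3d/3d control at 206 and 170.1 CPM, WT αMARCO at 101 and 141 CPM, and 3d/3d αMARCO at 106 and 95.5 CPM. Of these 17, 15 were called higher and 1 lower in WT control than in 3d/3d control, beside 6.58% and 6.4% of all genes. For 12 markers of conventional dendritic cells, the sums were 915 and 504, 178 and 127, 129 and 136, and 142 and 136 CPM. The 12 nonclassical monocyte markers summed to 1802 and 1789, 721 and 578, 1583 and 1764, and 965 and 1161 CPM. For 12 NK cell markers the sums were 165 and 147 CPM in WT control and 44.0 to 67.0 CPM in the other 6 libraries. The 16 stress and dissociation genes summed to 15480 to 20250 CPM in the control libraries, 21170 and 26090 CPM in WT αMARCO, and 25570 and 29060 CPM in 3d/3d αMARCO, highest in its library 2. Of these 16, 3 were called higher and 0 lower after αMARCO in WT TAMs, beside 8.91% and 11.8% of all genes. In 3d/3d TAMs all 16 had a log2 fold change above 0 and none was called by edgeR, beside 0.0% of all genes. There, 9 had an unadjusted p under 0.05 in edgeR, beside 4.82% of all genes, and DESeq2 called 1. Plasmacytoid dendritic cells are known for high interferon output, and 12 of their markers summed to 339.5 to 434 CPM. Most of this sum was *Lair1*, *Tlr9* and *Tcf4*, whereas *Siglech* was at 0.94 CPM or less and *Ccr9* at 1.09 CPM or less in every library. Of the 12 plasmacytoid markers, 9 had enough counts for a test in control TAMs, and none was called in any comparison by edgeR or DESeq2, with 3 at an unadjusted p under 0.05 between the genotypes in control and 2 after αMARCO in WT TAMs. The part of all these cells and of the stress genes in the *Irf1* difference and in the other calls was not tested.

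After αMARCO in WT TAMs the members moved in both directions. The median log2 fold change over the 41 genes was 0.08, beside −0.01 over all 15630 genes. Without a fold threshold, 12 members were higher and 6 lower at an adjusted p of at most 0.05, beside 5487 of the 15630 genes in either direction. At an unadjusted p under 0.05 in edgeR stood 24 members (58.5%, beside 45.8% of all genes). Both αMARCO libraries were above both controls for 21 genes (51.2%, beside 34.1% of all genes) and below for 9 genes (22.0%, beside 36.8%). This comparison and that of the genotypes in control TAMs share the WT control libraries, so the values of a gene in the 2 comparisons are not independent. *Stat2*, *Oas2*, *Oasl2*, *Slfn5* and *Parp14* had log2 fold changes of 0.61, 0.66, 0.61, 0.61 and 0.50 for αMARCO over control in WT, and of −0.48, −0.49, −0.30, −0.34 and −0.34 for WT over 3d/3d in control. *Ifit3b*, *Bst2* and *Ifi27l2a* had −0.55, −0.60 and −0.71 in the former and 0.07, 0.02 and −0.04 in the latter. When all 8 libraries were fitted in 1 model, so that 3d/3d αMARCO entered the estimate of spread, none of the 8 members was called, with adjusted p between 0.118 and 0.283.

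Under αMARCO, no member was called between the genotypes, nor was any of the 15722 genes tested (0.0%). At an unadjusted p under 0.05 stood 7 members in edgeR (17.1%, beside 6.84% of all genes) and 6 in DESeq2, which called none. The median over the 41 genes was −0.15 on the log2 scale for WT over 3d/3d. Both WT libraries were higher than both 3d/3d libraries for 7 genes (17.1%, beside 22.1% of all genes) and lower for 18 (43.9%, beside 22.2%). Without 3d/3d αMARCO library 2, 3 members were called, *Irf1* higher in WT, and *Ifit3b* (−0.54 ± 0.14, SE, adjusted p = 0.0411 by edgeR) and *Usp18* lower. The 3 made 7.32% of the members, beside 7.45% of all genes in that fit. Without library 1, 19 were called (46.3%, beside 38.6% of all genes), 6 higher and 13 lower. In these fits the lone 3d/3d library was assumed to vary like the pair of WT libraries.

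In 3d/3d TAMs, αMARCO gave no called member and no called gene of 15428 (0.0%). At an unadjusted p under 0.05 stood 0 members in edgeR, beside 4.82% of all genes, and 1 member in DESeq2. The αMARCO libraries were both higher than both controls for 7 genes (17.1%, beside 19.7% of all genes) and both lower for 1 gene (2.44%, beside 19.2%), and the groups of the other 33 overlapped. The median log2 fold change was 0.13. It was −0.05 without 3d/3d control library 2 and 0.30 without 3d/3d control library 1. Without 3d/3d αMARCO library 1, 12 members were called (29.3%, beside 34.1% of all genes), and without library 2 only *Slfn5* (2.44%, beside 3.41%). The difference of the αMARCO effects between WT and 3d/3d TAMs was called for none of the 41 genes nor for any of 16620 genes (0.0%), with 4 members at an unadjusted p under 0.05 in edgeR (9.76%, beside 15.3% of all genes) and 6 in DESeq2, which called none. The 4 were *Stat2* (0.81 ± 0.33), *Ifit3b* (−0.77 ± 0.25), *Bst2* (−0.87 ± 0.36) and *Ifi35* (−0.76 ± 0.33), given as log2 differences ± SE with adjusted p from 0.318 to 0.324 by edgeR. In the fit without 3d/3d αMARCO library 1, 17 members were called (41.5%, beside 36.4% of all genes), and without library 2 none was (beside 3.45%). An effect of αMARCO that differed between the genotypes was therefore not shown for any member, although the 8 calls were made in WT TAMs only.

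**Figure D4:**
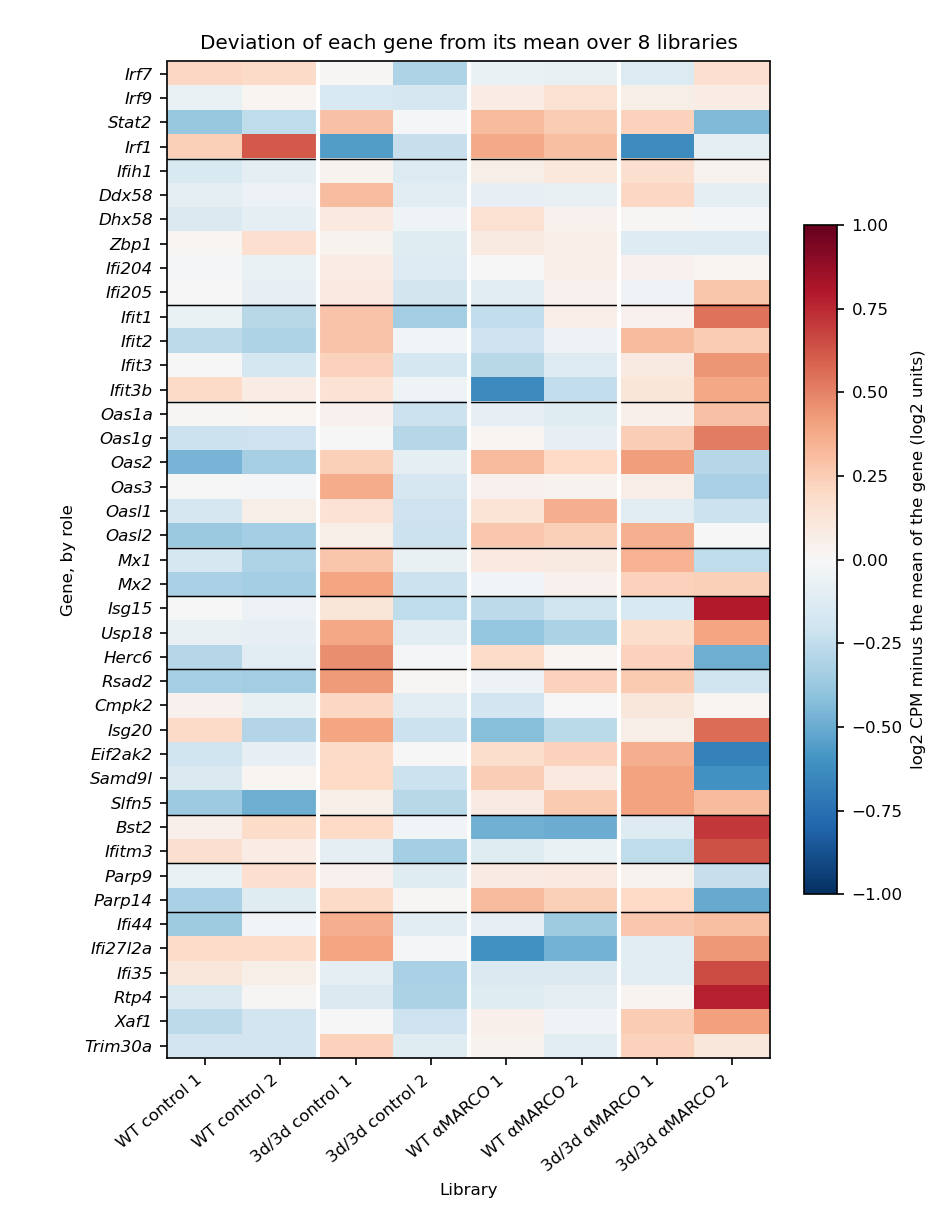
Log2 CPM of each gene minus its mean over the 8 libraries, with genes in rows by role and libraries in columns by group. The 3d/3d control library 1 was above its partner in 40 of 41 genes, and 3d/3d αMARCO library 2 deviated in both directions, upward for *Isg15*, *Rtp4* and *Bst2* and downward for *Eif2ak2* and *Samd9l*.

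The size and sign of the fold changes varied with the length of the gene. Summed exon length ranged from 463 bases in *Ifi27l2a* to 9306 bases in *Parp14*. Across the 41 genes, Pearson's r between log10 length and the log2 fold change of αMARCO in WT TAMs was 0.71 (Spearman's rho 0.66), against 0.0072 (rho 0.14) over all 15630 genes. The 5 members called higher had lengths of 4451 to 9306 bases and the 3 called lower had 463 to 2000 bases. Between the libraries of 3d/3d αMARCO, the log2 ratio of library 2 over library 1 had an r of −0.76 with length over the 41 genes and −0.20 over 16620 genes. *Isg15*, *Ifitm3* and *Bst2*, of 756, 678 and 903 bases, were higher in library 2 by 0.94, 0.89 and 0.83 on the log2 scale, while *Eif2ak2* and *Samd9l*, of 5113 and 5427 bases, differed by −1.04 and −1.004. For the libraries of WT control and of WT αMARCO, r over the 41 genes was 0.33 and −0.30. For the log2 fold change of WT over 3d/3d, r with length was −0.39 in control TAMs (−0.039 over all genes tested). Under αMARCO it was 0.65 (0.061 over all genes tested). For αMARCO in 3d/3d TAMs r was −0.48 (−0.115), and for the difference of the αMARCO effects 0.75 (0.025). Genes are not independent replicates and share libraries, so these correlations are descriptions without a test. With each library corrected for a smooth trend on gene length, 5 of the 8 calls of αMARCO in WT TAMs were kept (*Stat2*, *Oas2*, *Oasl2*, *Slfn5* and *Ifi27l2a*), and both calls between the genotypes in control TAMs were kept. The part of gene length in these differences was not tested further.

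**Figure D5:**
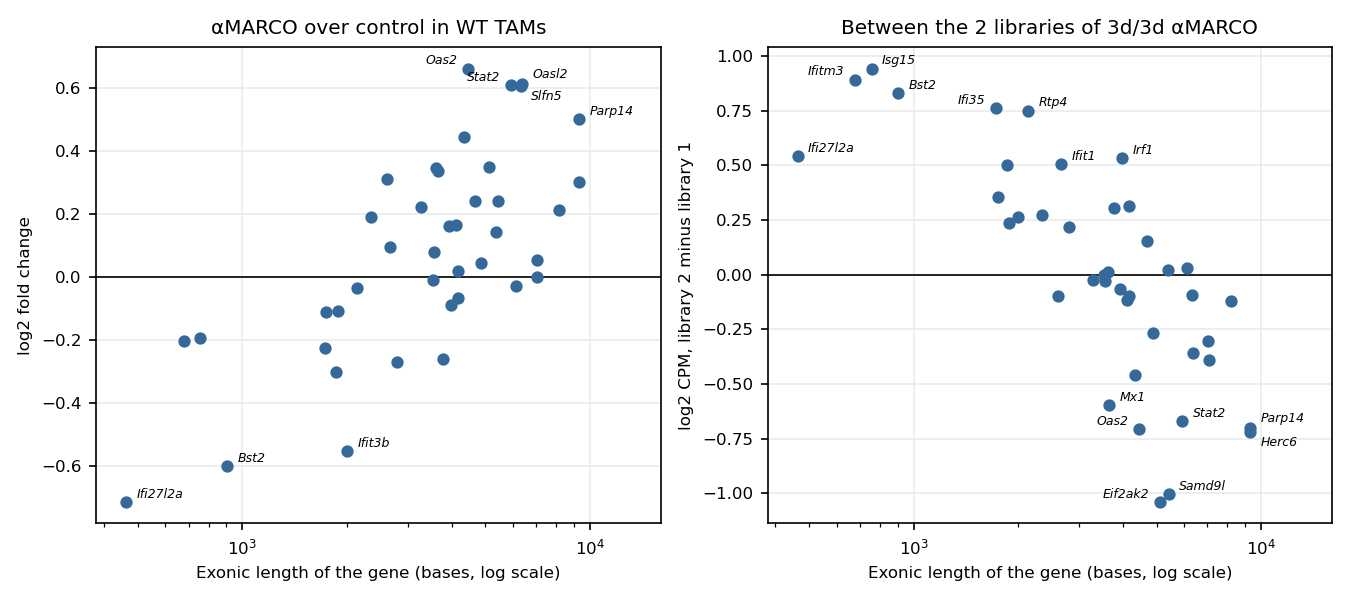
Summed exon length of each of the 41 genes (log scale) against its log2 fold change for αMARCO over control in WT TAMs (left) and against the log2 difference between the libraries of 3d/3d αMARCO (right), with genes beyond 0.5 in either direction named. The points ran upward with length for αMARCO in WT TAMs (r of 0.71) and downward between the libraries of 3d/3d αMARCO (r of −0.76).

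The ligands of the pathway were near the limit of detection. *Ifnb1*, which encodes interferon-β, had 0 and 9 counts in WT control, 26 and 24 counts in 3d/3d control, 19 and 26 counts in WT αMARCO, and 20 and 25 counts in 3d/3d αMARCO. Its 2 WT control libraries were the lowest of the 8, with a log2 fold change of WT over 3d/3d of −2.52 ± 0.95 (SE, adjusted p = 0.100 by edgeR) that was not called, and the value depends on how a count of 0 is treated. No listed interferon-α gene had more than 3 counts in any library, and reads of these near-identical copies cannot be assigned with certainty. *Ifng*, which encodes interferon-γ and is a product of T and NK cells, had 151 and 144 counts in WT control, 14 and 0 counts in 3d/3d control, 4 and 34 counts in WT αMARCO, and 1 and 4 counts in 3d/3d αMARCO. It was called higher in WT control than in 3d/3d control (log2 fold change 4.26 ± 0.92, adjusted p = 0.0344 by edgeR), a call that DESeq2 did not make (adjusted p = 0.239), and lower after αMARCO in WT TAMs (−3.31 ± 0.59, adjusted p = 0.00764).

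Of 16 receptor and JAK-STAT genes, 4 were called higher and 2 lower in WT than in 3d/3d control, beside 6.58% and 6.4% of all genes. The 4 higher ones were *Ifnlr1*, *Socs3* and, named after their values were seen, *Socs1* and *Ptpn6*. The 2 lower ones were both chains of the type I interferon receptor. *Ifnar1* was at 232 and 209 CPM in WT control, 339 and 334 CPM in 3d/3d control, 387 and 397 CPM in WT αMARCO, and 469 and 374 CPM in 3d/3d αMARCO, with a log2 fold change of −0.62 ± 0.10 between the genotypes in control (SE, adjusted p = 0.00325 by edgeR) and 0.84 ± 0.09 after αMARCO in WT (adjusted p = 0.000186). *Ifnar2* was at 120.2 and 120.5 CPM, 184 and 171 CPM, 129 and 138 CPM, and 189.7 and 202 CPM, with −0.58 ± 0.09 between the genotypes in control (adjusted p = 0.00399 by edgeR). Every 3d/3d library of *Ifnar2* lay above every WT library.

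Of 22 genes from endosomal TLRs to IRF factors, 1 was called higher and 0 lower in WT than in 3d/3d control, beside 6.58% and 6.4% of all genes. The 1 called was *Unc93b1* itself. After αMARCO in WT TAMs, 1 of the 22 was called higher and 0 lower, beside 8.91% and 11.8% of all genes. It was the kinase gene *Irak2* (84 and 88 CPM in WT control, 154 and 172 CPM in WT αMARCO). *Tlr7* was at 67.4 and 82.2 CPM in WT control and 103 and 102 CPM in 3d/3d control (log2 fold change −0.47 ± 0.11, SE, adjusted p = 0.0194 by edgeR, below the fold threshold). *Tlr9* was at 99.8 and 112 CPM in WT control and at 100.5 and 96.1 CPM in 3d/3d control, while 3d/3d αMARCO library 2 held 27.5 CPM against 87.1 CPM in library 1.

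Genes known to respond mainly to interferon-γ were set beside the type I members. Of 25 such genes, 8 were called higher and 0 lower in WT control than in 3d/3d control, beside 6.58% and 6.4% of all genes. Of the 25, 24 had a log2 fold change above 0, with a median of 0.37 against −0.14 for the type I members. At an unadjusted p under 0.05 in edgeR stood 14 higher and 0 lower, and DESeq2 called 7 higher and 0 lower. Under αMARCO, 24 of the 25 were tested between the genotypes and none was called by edgeR. Their median was 0.47, with 16 above 0, and 11 higher and 3 lower at an unadjusted p under 0.05. In that comparison DESeq2 called 4 higher and 0 lower. *Gbp10*, which encodes a guanylate-binding protein, was at 2.0 and 3.1 CPM in WT control and 0.82 and 0.86 CPM in 3d/3d control (log2 fold change 1.58 ± 0.44, SE, adjusted p = 0.0361 by edgeR). *Ido1*, an enzyme of tryptophan breakdown, had 12 and 18 counts in WT control and 1 count in each 3d/3d control library. In WT TAMs after αMARCO, 0 of the 25 were called higher and 1 lower (*Gbp10*, at 0.83 and 1.3 CPM), beside 8.91% and 11.8% of all genes. There, edgeR had 2 higher and 6 lower at an unadjusted p under 0.05, and DESeq2 called none. The list was chosen with earlier results of these data known, and the difference between the lists was not tested.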

How the data were processed

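The authors trimmed reads with fastp, aligned them to GRCm38 with HISAT2 (2.0.5) and counted reads per gene with featureCounts (1.5.0), per the labels and the methods of the study. The strand setting and the annotation release were not given in the sources used here. The deposited tables hold raw counts per gene and FPKM values that the authors computed from them, next to 12 columns of size-factor-normalized values and the authors' own comparisons (log2 fold changes, p-values and adjusted p-values), none of which was used. The 3 deposited tables were joined by gene identifier, and 95230 counts present in more than 1 table differed in 0 cases. A gene missing from a table (4256 genes) was set to 0 there.

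Counts were tested with edgeR (4.0.16) under R (4.3.3), with TMM factors, filterByExpr and a robust quasi-likelihood fit on the 4 libraries of each pairwise comparison and on all 8 for the difference of the αMARCO effects. P-values were adjusted by Benjamini-Hochberg over all genes tested, and calls needed an adjusted p no larger than 0.05 with a log2 fold change of 0.5 or more in either direction. Fold changes are WT over 3d/3d or αMARCO over control. FPKM served only to compare levels between genes. Full values were given for every called member and, per role, for the 2 genes highest in FPKM and the uncalled gene of lowest p, and in other lists for called genes of largest fold and a few pathway genes. The 41 members, the gene lists and this rule were chosen with earlier results of these data known. The fits were tested on simulated data with changes larger than those of any member, so this check does not cover changes of the size reported for members. Alternatives were DESeq2 (1.42.0), other scalings and filters, no or a stricter fold threshold, a replicate block, each library left out and, chosen after seeing the data, a gene length correction. P-values measure only the spread between these libraries, which may be partly technical, and the limit of 3 counts (0.114 to 0.198 CPM by library) covers counting error only. A result on 1 gene of the pathway lists is not reported here.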

Additional observations from a re-analysis of the deposited data

How the results depend on the processing

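No called member changed direction under any alternative run, but the median over the 41 genes did between the genotypes in control TAMs without 3d/3d control library 1 (from −0.14 to 0.08) and for αMARCO in 3d/3d TAMs without 3d/3d control library 2 (from 0.13 to −0.05). For the difference of the αMARCO effects the median was 0.005. Its sign also varied among the alternatives, from −0.13 without 3d/3d control library 1 to 0.11 with library totals in place of TMM. Between the genotypes in control TAMs, 2 members were called, against 0 with all 8 libraries in 1 model, 4 with library totals in place of TMM, 5 without a fold threshold and 0 where a log2 fold change of 1 in either direction was required. Leaving out each library in turn gave 1 to 10. After αMARCO in WT TAMs, 8 members were called, against 0 with all 8 libraries, 5 with the gene length correction (chosen after seeing the data), 18 without a fold threshold and 0 at a log2 fold change of at least 1, and leaving out each library gave 6 to 9. For the other comparisons, with 0 members called, leaving out each library gave 0 to 19 between the genotypes under αMARCO, 0 to 12 for αMARCO in 3d/3d TAMs and 0 to 17 for the difference of the αMARCO effects. In the model of all 8 libraries, *Irf1* had an adjusted p of 0.127 and *Rsad2* of 0.256. The cause of these changes was not tested, apart from the thresholds, which alter the count by construction.

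Same-numbered libraries showed little common deviation (correlations of −0.0768 to 0.135 over 16620 genes). These correlations cannot show whether libraries of the same number were processed together. With a replicate block, 2, 0, 8, 0 and 0 members were called in the 5 comparisons.

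Over all genes, the 2025 calls between the genotypes in control became 364 with all 8 libraries and 951 at the stricter fold. The 3236 calls after αMARCO in WT TAMs became 164, 5487 without a fold threshold, 1366 at the stricter fold and 1940 without WT αMARCO library 1. The 0 calls between the genotypes under αMARCO became 215 with DESeq2, 108 with all 8 libraries, 107 without a filter, 97 with the block, 20 with the length correction, 6366 and 1252 without 3d/3d αMARCO library 1 and 2, and 39 and 17 without WT αMARCO library 1 and 2. For αMARCO in 3d/3d TAMs they became 60 with DESeq2, 174 without a filter, 5 with the block, and 5500 and 571 without 3d/3d αMARCO library 1 and 2. For the difference of the effects they became 208, 152 without a filter, 3 with the length correction, and 6440 and 612.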

Other observations

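Other interferon-stimulated genes, outside the 41, were set apart as a longer list of 82 tested genes. Between the genotypes in control TAMs, 8 were called higher and 2 lower in WT, beside 6.58% and 6.4% of all genes. The median log2 fold change of the list was −0.04. *AW112010*, a transcript induced in activated immune cells, was at 166 and 178 CPM in WT control, 68.2 and 85.3 CPM in 3d/3d control, 88.1 and 87.8 CPM in WT αMARCO, and 52.4 and 104 CPM in 3d/3d αMARCO. WT control was the high group, by a log2 fold change of 1.148 ± 0.12 over 3d/3d control (SE, adjusted p = 0.000395 by edgeR), and αMARCO in WT TAMs gave −0.96 ± 0.08 (adjusted p = 7.23e-05). *Slfn8*, a Schlafen gene, was at 13.4 and 8.203 CPM in WT control, 4.52 and 2.84 CPM in 3d/3d control and 4.27 and 4.28 CPM in WT αMARCO. The 2 genes called lower in WT control, named after their values were seen, were the chemokine gene *Ccl12* (−1.05) and the helicase gene *Ddx60* (−0.97). After αMARCO in WT TAMs, 3 of the 82 were called higher and 5 lower, beside 8.91% and 11.8% of all genes. *Cxcl11*, a chemokine that attracts T cells through CXCR3, was at 12.3 and 12.2 CPM in WT control, 17.96 and 15.8 CPM in 3d/3d control, 22.1 and 27.5 CPM in WT αMARCO, and 34.2 and 40.04 CPM in 3d/3d αMARCO, with an αMARCO effect in WT TAMs of 1.031 ± 0.14 (adjusted p = 0.000779 by edgeR). All 4 αMARCO libraries of *Cxcl11* exceeded all 4 controls.

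Of 14 genes of the cytosolic nucleic acid pathway, which senses RNA and DNA outside endosomes, none was called between the genotypes in control TAMs by edgeR or DESeq2. Beside this, edgeR called 6.58% of all genes higher and 6.4% lower. At an unadjusted p under 0.05 in edgeR stood 4 of the 14, beside 33.6% of all genes. After αMARCO in WT TAMs, 1 was called higher and 2 lower, beside 8.91% and 11.8% of all genes. *Trim25*, a ubiquitin ligase that activates RIG-I, was at 372 and 373 CPM in WT control and 591 and 683 CPM in WT αMARCO (log2 fold change 0.78 ± 0.09, SE, adjusted p = 0.000437 by edgeR). *Rnaseh2c*, a subunit of the nuclease that removes RNA from DNA, fell from 38.6 and 36.0 CPM to 19.4 and 21.5 CPM (−0.86 ± 0.11, adjusted p = 0.000489). *Tmem173*, which encodes STING and was named after its value was seen, was the other called lower, with a log2 fold change of −0.54.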
